A study of Mus musculus with 3 samples.

Results

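The genes described here are the 63 mouse genes of the heterotrimeric G proteins, the regulators of G protein signalling (RGS) and the G protein-coupled receptor kinases (GRK), out of 55536 genes measured and 21901 with a protein-coding transcript. They were chosen by symbol, as every gene with a protein-coding transcript whose name follows the patterns of the Gna, Gnb, Gng, Rgs and Grk families. By class they are 16 alpha, 5 beta and 12 gamma subunits, 21 RGS genes and 6 GRK genes. A further 3 genes, Gnb1l, Rgs7bp and Rgs9bp, fit the name pattern but do not encode a subunit or an RGS protein, and 4 processed pseudogenes of the families (Gng2-ps1, Gng5-ps, Gnb1-ps2 and Gnb1-ps3) were left out and had 0 counts. Total RNA was sequenced from splenic T cells (a label names CD3) of virgin female B6CASTF1/J mice aged 66 days, the F1 of C57BL/6 females and CAST/EiJ males. All 3 libraries (replicates 1, 2 and 3) belong to 1 group and were each made with a directional kit from 300 ng of RNA with spike-in transcripts. The labels give 3 biosample records under 1 donor record, so the spread behind each SD and p-value is that of these samples alone and may be technical. Reads were assigned to 1 reference genome, and the parental alleles were not analysed here.

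A G protein of an alpha, a beta and a gamma subunit couples receptors of the cell surface to enzymes inside. An active receptor loads the alpha subunit with GTP, and alpha and beta-gamma then act on separate effectors until GTP is hydrolysed, a step that RGS proteins speed up, while GRKs phosphorylate the active receptor so that arrestins can bind it. Alpha subunits of the Gi/o class inhibit adenylyl cyclase, those of the Gs/olf class stimulate it and those of the Gq/11 class activate phospholipase C beta. Those of the G12/13 class act on the actin cytoskeleton. T cells use Gi-coupled chemokine and sphingosine 1-phosphate receptors to enter, cross and leave lymphoid organs, and use Gs-coupled receptors for prostaglandin and adenosine that raise cyclic AMP.

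The gene table held 16.9, 15.0 and 16.2 M estimated counts in replicates 1, 2 and 3, and spike-ins took 0.309% to 0.318%. All 11 T-cell markers (such as Cd3e, Trac and Lck) exceeded 10 TPM, an abundance scaled by effective length and depth, and their sum was 2906 to 3151 TPM. Summed levels were 12.8 to 24.4 TPM for 10 B-cell markers, 27.2 to 34.5 TPM for 10 monocyte and macrophage markers, 22.7 to 29.2 TPM for 6 natural killer cell markers, 3.84 to 6.59 TPM for 6 platelet markers and 42.6 to 96.9 TPM for 6 erythroid markers. None of these markers was at 0 in every library. In bulk RNA, fewer cells of a type and less RNA per cell cannot be told apart. Values after ± are SDs of the 3 libraries (n = 3), and levels are in TPM, which allows genes to be compared per length.

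In these T cells 1 or 2 genes carried most of the RNA of the beta, gamma and GRK classes and of the Gi/o, Gs/olf and G12/13 alpha subunits, while the RNA of the RGS class was spread over several genes. Of the 63 members, 31 reached 1 TPM in all 3 libraries, where 44.9% of all genes with a protein-coding transcript did. At 10 TPM there were 17 members, against a background of 25.5%, and at 100 TPM there were 5, against 2.00%. In the second quantification, a deposited transcript table made from the reads in a separate run and summed per gene, 7 members reached 100 TPM, and over transcript entries annotated as protein-coding alone 3 did. No share over all genes was computed in either of these settings, so the 7 and the 3 describe the members only. The 5 of the gene table were Gnai2, Gnas, Gnb2, Grk2 and Grk6. By class, 9 of 16 alpha, 4 of 5 beta, 5 of 12 gamma, 8 of 21 RGS and 4 of 6 GRK genes reached 1 TPM in every library. A further 13 members had 0 counts in every library, where 31.7% of all genes with a protein-coding transcript had estimated counts that round to 0 in every library.

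**Figure D1:**
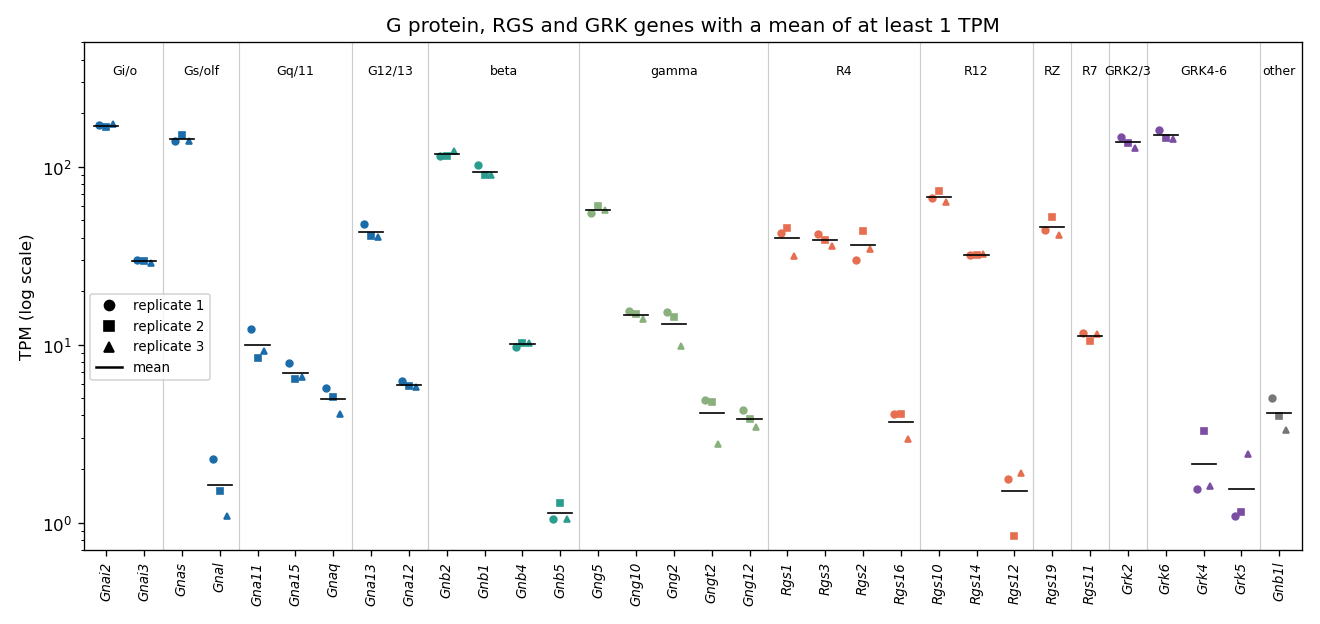
Level in TPM (log axis) of the 32 members with a mean of at least 1 TPM, by class, with a point for each of the 3 libraries and a line for the mean. Gnai2, Gnas, Gnb2, Grk2 and Grk6 lie above 100 TPM in every library, while Gnal, Gnb5, Rgs12, Grk4 and Grk5 have means from 1.13 to 2.15 TPM.

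Gnai2, the Gi alpha subunit through which most chemokine receptors of lymphocytes signal, was the highest member. Gnai2 (ENSMUSG00000032562.13, mm10 chromosome 9, 107614125 to 107635367, minus strand) had 171, 168 and 173 TPM in replicates 1, 2 and 3, from 4447 to 4855 counts, a CV of 1.51%. The libraries were nearly level. Gnai3, its close paralog, had 29.8, 29.5 and 28.9 TPM, again level across libraries. Gnai2 exceeded Gnai3 by 2.54 ± 0.04 on the log2 scale, or 5.80-fold, in 3 of 3 libraries. In TMM-scaled CPM, a count scaled by depth and not by length, the log2 ratio was 1.62. The exact two-sided sign-flip test over the 3 libraries gave p = 0.25, below which 3 libraries cannot go, and 0.286 after Benjamini-Hochberg adjustment over the 8 ratios tested. The same p-values hold for each ratio below except Rgs1 over Rgs2, so the sizes and SDs carry these comparisons. The other Gi/o genes had means below 1 TPM. Gnao1, the main alpha subunit of neurons, had the highest mean of these, 0.867 TPM, but its libraries were far apart at 1.73, 0.20 and 0.67 TPM from 45, 16 and 23 counts. Gnai1 averaged 0.0133 TPM from 2 counts in 1 library, Gnaz 0.00667 TPM from 1 count, and the transducins of the retina, Gnat1 and Gnat2, 0.560 and 0.0467 TPM. Gnat3, the taste-cell alpha subunit, had 0 counts. Over the 8 Gi/o genes the sum was 201.3 ± 2.34 TPM, of which Gnai2 made up 84.7%.

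Gnas, which encodes the stimulatory subunit Gs alpha, was the second alpha gene. Gnas (ENSMUSG00000027523.19, mm10 chromosome 2, 174284320 to 174346744, plus strand) had 139.7, 152 and 140.3 TPM. Replicate 2 was highest and the other two nearly equal. Gnai2 exceeded Gnas by 0.24 ± 0.09 on the log2 scale, in 3 of 3 libraries. This log2 ratio was 0.31 ± 0.03 in the second quantification. Over protein-coding entries it was 0.12 ± 0.097, with only 0.00872 in replicate 2. Gnal, the olfactory paralog of Gs alpha, had 2.27, 1.5 and 1.09 TPM, from 217, 130 and 103 counts. Replicate 1 was highest. Chmp1b (20.98 TPM) lies within Gnal on the same strand and Mppe1 (19.7 TPM) on the opposite one, both above Gnal itself. The posterior SD of the Gnal count was 0% of the count in the deposited table. Whether counting used strand is not given in the sources used here, so the part of Mppe1 reads in the value of Gnal was not tested.

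Gnas is an imprinted locus with several first exons, and its splice forms are shown because the RNA of T cells came mainly from 1 start. Entries with the first exon of Gs alpha held 95.9 ± 1.23% of the gene's TPM. Those with the first exon of Nesp, a neuroendocrine secretory protein, held 0.22%, those of the extra-large form XL alpha s 0.00475%, and entries with other starts 3.88%. The XL alpha s value came from Gnas-204 at 0.02 TPM in replicate 3 alone. Entries were placed there only if their first exon was that of the longest coding entry. The other starts include the coding entry Gnas-202 of 3903 bases, at 0.858%, and whether it is an XL alpha s form was not tested. The Gs alpha start remained the main one in the second quantification, at 82.9%, with 4.85% for Nesp and 12.2% for other starts. The 3 full-length Gs alpha entries differ around exon 3, a 45-base cassette at chr2:174336747-174336791 whose use gives the long and short forms of the protein. The fragments below join 20 bases of exon 2 to 20 bases of exon 4 (mm10, plus strand, chr2:174334265-174341672, transcripts of GENCODE M21), and capitals mark the bases that the shortest form lacks.
Gnas-208: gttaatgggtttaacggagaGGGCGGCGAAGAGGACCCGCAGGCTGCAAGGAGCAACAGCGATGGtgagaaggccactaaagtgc
Gnas-207: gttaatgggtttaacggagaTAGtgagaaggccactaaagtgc
Gnas-206: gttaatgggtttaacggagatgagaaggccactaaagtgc

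The form without either insertion, Gnas-206, had 66.4, 63.4 and 62.3 TPM in replicates 1, 2 and 3. Gnas-207, in which exon 4 starts 3 bases earlier, had 38.2, 45.4 and 44.7 TPM, and Gnas-208, with exon 3, had 24.8, 30.6 and 25.3 TPM. The order of the forms was the same in every library. Exon 3 was thus in 20.1 ± 1.63% of the TPM of these 3 entries and the 3-base extension in 32.0 ± 2.21%. In the second quantification these shares were 21.9% and 41.2%, and Gnas-207 led in place of Gnas-206.

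The remaining alpha subunits were lower. Gna13, which acts on the cytoskeleton, had 47.7, 40.6 and 40.5 TPM, highest in replicate 1, and its paralog Gna12 had 6.24, 5.83 and 5.76 TPM. Gna13 exceeded Gna12 by 2.85 ± 0.07 on the log2 scale, or 7.21-fold, in 3 of 3 libraries. Gna12 overlaps Amz1 (1.98 TPM) on the opposite strand. Of the Gq/11 class, Gna11 had 12.2, 8.41 and 9.19 TPM, highest in replicate 1. Gna15, the member of blood cells that accepts many receptors, had 7.91, 6.40 and 6.58 TPM, and Gnaq had 5.68, 5.06 and 4.10 TPM. All 3 of these were highest in replicate 1. Gnaq was lower than Gna11, at a log2 ratio of -1.0 ± 0.23, in 3 of 3 libraries. That order turned in the second quantification, where the ratio was 0.16 ± 0.22, and the cause was not tested. It was -1.65 over protein-coding entries. Gna14 averaged 0.123 TPM. The alpha subunits summed to 418 ± 7.04 TPM, of which Gi/o held 48.2 ± 1.03%, Gs/olf 34.9 ± 1.64%, G12/13 11.7 ± 0.883% and Gq/11 5.25 ± 0.741%. The Gq/11 genes summed to 21.97 TPM, against 37.0 TPM in the second quantification and 9.21 TPM over protein-coding entries, where their shares were 6.66% and 2.42%.

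Of the beta subunits, which form a tight unit with gamma, Gnb2 and Gnb1 made up nearly all the RNA. Gnb2 (ENSMUSG00000029713.15, mm10 chromosome 5, 137528127 to 137533510) had 115, 114 and 123 TPM, highest in replicate 3. Gnb1 had 102, 90.1 and 89.7 TPM, highest in replicate 1. Their ratio, Gnb1 over Gnb2, was -0.32 ± 0.14 on the log2 scale and negative in 3 of 3 libraries. It turned to 0.15 ± 0.11 in the second quantification and to 0.28 ± 0.04 over protein-coding entries alone, so no order of this pair is shown. Gnb4 had 9.67, 10.2 and 10.3 TPM, and Gnb5, the beta subunit that pairs with RGS proteins of the R7 type, had 1.04, 1.29 and 1.05 TPM from 22 to 27 counts. Gnb3, known from cone photoreceptors, had 0 counts. The class summed to 222 ± 5.84 TPM, with 52.8% in Gnb2 and 42.2% in Gnb1. These shares were 45.1% and 49.96% in the second quantification, and 44.1% and 53.6% over protein-coding entries, where the class summed to 121 TPM. Gnb1l, a WD-repeat gene that is no beta subunit, had 5.02, 3.99 and 3.33 TPM and overlaps Rtl10 (3.27 TPM).

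The gamma subunits anchor beta-gamma to the membrane through a lipid tail. Gng5 led with 54.8, 60.1 and 57.3 TPM and made up 61.5 ± 4.04% of the gamma sum of 93.6 ± 5.44 TPM. Gng10 had 15.5, 14.9 and 13.9 TPM, and Gng2, a common partner of Gnb1 in many cells, had 15.3, 14.3 and 9.78 TPM. Replicate 3 was the lowest for both, and Gng2 had the highest CV of the 19 members with a mean of at least 10 TPM, 22.3%. Gng2 was lower than Gng5 by 4.46-fold, at a log2 ratio of -2.16 ± 0.36, in 3 of 3 libraries. The ratio was -3.05 in the second quantification and -0.76 in TMM-scaled CPM, a count scaled by depth and not by length. Gngt2, known from cones and also found in blood cells, had 4.89, 4.74 and 2.75 TPM, and Gng12 had 4.28, 3.80 and 3.43 TPM. Both were again lowest in replicate 3, and Gngt2 overlaps Abi3 (14.2 TPM) on the opposite strand. The other 7 gamma genes lay below 1 TPM. Gng4 had the highest mean of these, 0.233 TPM from 6, 2 and 3 counts, while Gng8, Gng11, Gng13 and Gngt1 had 0 counts.

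The RGS genes summed to 277 ± 22.0 TPM without a single dominant member, and 7 of 21 reached 10 TPM in every library. Over protein-coding entries alone the sum was 162 TPM, and 4 of 21 reached 10 TPM, namely Rgs10, Rgs19, Rgs14 and Rgs2. No share over all genes was computed over such entries, so the 4 describe the members only. Rgs10, a small RGS protein that acts on Gi alpha subunits, was highest with 66.5, 72.8 and 63.4 TPM, 24.4 ± 0.274% of the RGS sum. Rgs19, also named GAIP, had 43.9, 52.3 and 41.6 TPM. Both were highest in replicate 2. Rgs3 had 41.7, 38.8 and 36.1 TPM. Rgs14, which carries a second Gi-binding motif, had 32.0, 31.8 and 32.5 TPM, and its CV of 1.03% was the lowest of the 19 members at 10 TPM or more. Rgs11, an R7-type gene best known from retina, had 11.7, 10.5 and 11.5 TPM and overlaps Arhgdig (0.06 TPM) on the opposite strand. Rgs16, a small R4 gene induced by activation in lymphocytes, had 4.09, 4.06 and 2.94 TPM, and Rgs12 had 1.76, 0.84 and 1.89 TPM from 37 to 57 counts. By subfamily, the R4 genes held 42.7 ± 1.49%, the R12 genes 36.6 ± 1.49%, the RZ genes 16.5 ± 0.762% and the R7 genes 4.17 ± 0.556% of the RGS sum. The order of the first 2 turned in the second quantification, with 33.3 ± 2.00% for R4 and 42.6 ± 1.86% for R12 genes. Over protein-coding entries R4 held 21.97 ± 1.63%, R12 52.5 ± 2.07%, RZ 25.5 ± 1.16% and R7 0.0818 ± 0.0112%, so no order of R4 and R12 is shown.

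Rgs1 and Rgs2 are small R4 genes that are known to respond to activation in lymphocytes. Rgs1 (ENSMUSG00000026358.13, mm10 chromosome 1, 144242296 to 144249242, minus strand) had 42.6, 45.2 and 31.7 TPM, from 1000, 927 and 752 counts. Rgs2 (ENSMUSG00000026360.9, mm10 chromosome 1, 143999338 to 144004161, minus strand) had 30.1, 43.7 and 34.6 TPM, from 677, 740 and 690 counts. Replicate 2 was highest for both, replicate 3 lowest for Rgs1 and replicate 1 lowest for Rgs2. Their log2 ratio, Rgs1 over Rgs2, was 0.14 ± 0.32 and positive in 2 of 3 libraries, with an exact sign-flip p = 0.75, also 0.75 adjusted. It became -0.44 in the second quantification, -0.04 without replicate 1 and -4.61 over protein-coding entries, where Rgs2 was higher in 3 of 3 libraries, so no order of these 2 genes is shown. Replicate 2 also had the highest sums of the B-cell markers (17.1, 24.4 and 12.8 TPM), the erythroid markers (54.2, 96.9 and 42.6 TPM) and 9 immediate-early genes of tissue handling (814, 939 and 837 TPM). Of the immediate-early genes, Fos (80.2, 100.8 and 122 TPM) and Fosb (31.1, 38.6 and 43.7 TPM) were instead highest in replicate 3. Atf3 (1.65, 1.19 and 0.87 TPM) was highest in replicate 1. Replicate 2 had the lowest sums of the monocyte and macrophage (34.5, 27.2 and 31.0 TPM), natural killer cell (29.2, 22.7 and 24.8 TPM), neutrophil and platelet markers. The part of any of these in the levels of Rgs1 and Rgs2 was not tested.

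Among the RGS genes below 1 TPM, Rgs9 had the highest mean, 0.210 TPM, followed by Rgs18 with 0.190 TPM. Rgs18 is best known from platelets, whose 6 markers summed to at most 6.59 TPM. Rgs4, Rgs5, Rgs7, Rgs13, Rgs17, Rgs21 and Rgs22 had 0 counts in every library. Rgs13 is known from germinal-centre B cells and mast cells, and Rgs4 and Rgs5 from neurons and pericytes. For the 13 members at 0, counts alone allow a true level of up to 3 counts per library, which ranged from 0.0383 TPM for Rgs17 to 0.450 TPM for Gng13 and covers counting error only. These limits hold for the gene table alone. In the second quantification 7 of the 13 were at 0 in every library and 5 exceeded their limit in at least 1 library. Gngt1 had 0.747, 1.02 and 0.496 TPM there and Rgs7 0.222, 0.149 and 0.231 TPM, above the limit in every library. Rgs22 had 0.199, 0.0862 and 0.213 TPM, above it in replicates 1 and 3, while Rgs17 reached 0.134 TPM in replicate 3 and Rgs21 0.0801 TPM in replicate 1. The TPM of Rgs7 and Rgs22 there lay 100% in entries with a retained intron, and that of Rgs21 100% in processed transcripts. Gngt1 had 96.4% and Rgs17 100% in protein-coding entries.

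Of the GRKs, Grk6 and Grk2 held nearly all the RNA in close to equal parts. Grk6 (ENSMUSG00000074886.11, mm10 chromosome 13, 55445072 to 55460927, plus strand) had 161, 146 and 143 TPM from 5725 to 6743 counts. Grk2 (ENSMUSG00000024858.14, mm10 chromosome 19, 4286001 to 4306222, minus strand), whose protein is recruited by free beta-gamma, had 148, 136 and 127 TPM from 5523 to 6245 counts. Replicate 1 had the highest level of both and replicate 3 the lowest. Grk6 exceeded Grk2 by 0.13 ± 0.04 on the log2 scale, or 1.10-fold, in 3 of 3 libraries, and by 0.13 ± 0.03 in the second quantification. They made up 51.5 ± 0.667% and 47.0 ± 0.608% of the GRK sum of 292 ± 19.3 TPM. Grk5, which overlaps Zfp950 (10.2 TPM) on the opposite strand, had 1.09, 1.15 and 2.42 TPM, and Grk3, the paralog of Grk2, had 0.84, 0.93 and 0.47 TPM. Grk4 had 1.55, 3.29 and 1.60 TPM from 58, 56 and 63 counts, so its TPM in replicate 2 stood apart while its counts did not. Grk1, a kinase of the retina, averaged 0.0267 TPM.

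**Figure D2:**
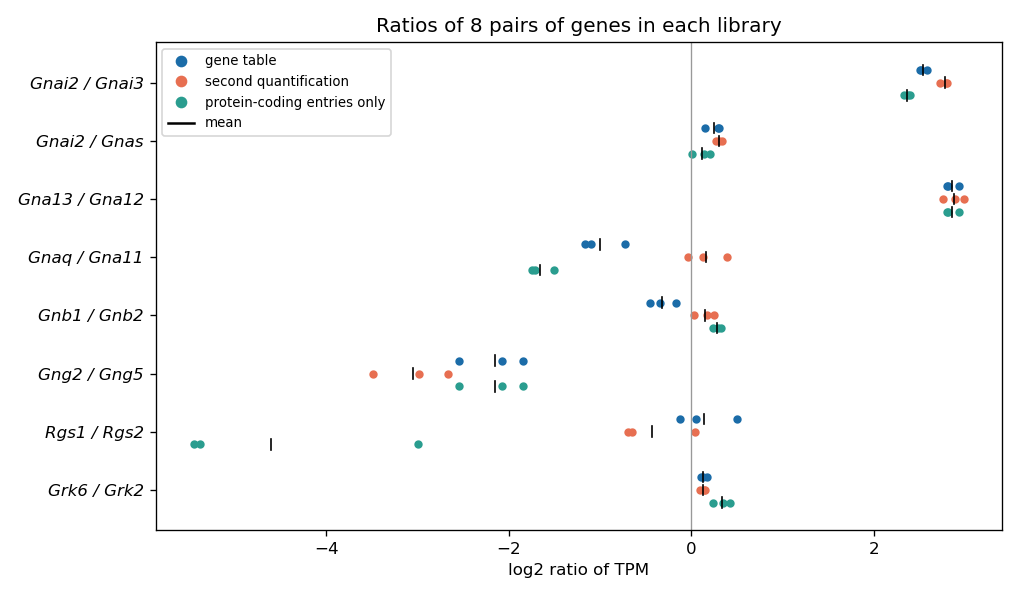
Log2 ratio of TPM in each library for 8 pairs of genes, with blue points from the gene table, orange points from the second quantification, green points from protein-coding entries only, and a line for each mean. The means of Gnaq over Gna11 and Gnb1 over Gnb2 lie at -1.0 and -0.32 in the gene table and at 0.16 and 0.15 in the second quantification, while those of Gna13 over Gna12 lie at 2.85 and 2.87.

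The level of a gene is not the level of its coding mRNA, since the annotation also holds entries with a retained intron, entries marked for nonsense-mediated decay and processed transcripts. For the 19 members with a mean of at least 10 TPM, the median share of TPM in protein-coding entries was 78.6%, against 69.3% over all 5961 such genes. It was at least 80% for 9 members, from 50% to under 80% for 5 and under 50% for 5, where 24.6% of all such genes were under 50%. Gng2, Gng5, Gnai3 and Gna13 had all of their TPM in coding entries. Gnas stood at 97.0%, Grk6 at 90.5%, Rgs19 at 90.2%, Rgs10 at 88.9% and Gnai2 at 88.7%. Grk2 had 78.6 ± 2.96%, Rgs14 75.3%, Gnb1 69.2%, Rgs2 53.9% and Gng10 53.1%, although Gng10 had 95.3% in the second quantification. Gng10 also had the highest posterior SD of the count, 3.74%, which reflects reads shared between genes, and overlaps Gm20503, which had 0 TPM.

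The 5 members with most TPM outside coding entries were Rgs11, Rgs1, Gnb4, Rgs3 and Gnb2. Rgs11 had 0% in coding entries and 99.5% in retained-intron entries, led by Rgs11-208, and 2.73% in coding entries in the second quantification. Rgs1 had 2.62 ± 2.44% in coding entries, 50.3% in retained-intron entries and 47.1% in entries marked for decay. Gnb4 had 20.5 ± 1.18%, Rgs3 29.7 ± 4.76% and Gnb2 45.6 ± 3.22% in coding entries, and the rest lay mostly in retained-intron entries. In the second quantification the shares were 9.40% for Rgs1, 34.1% for Gnb4, 44.5% for Rgs3 and 59.8% for Gnb2, so Gnb2 passed 50% there. Among members between 1 and 10 TPM, Gna15 had 18.3 ± 2.84% and Gnaq 38.5 ± 6.46%.

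**Figure D3:**
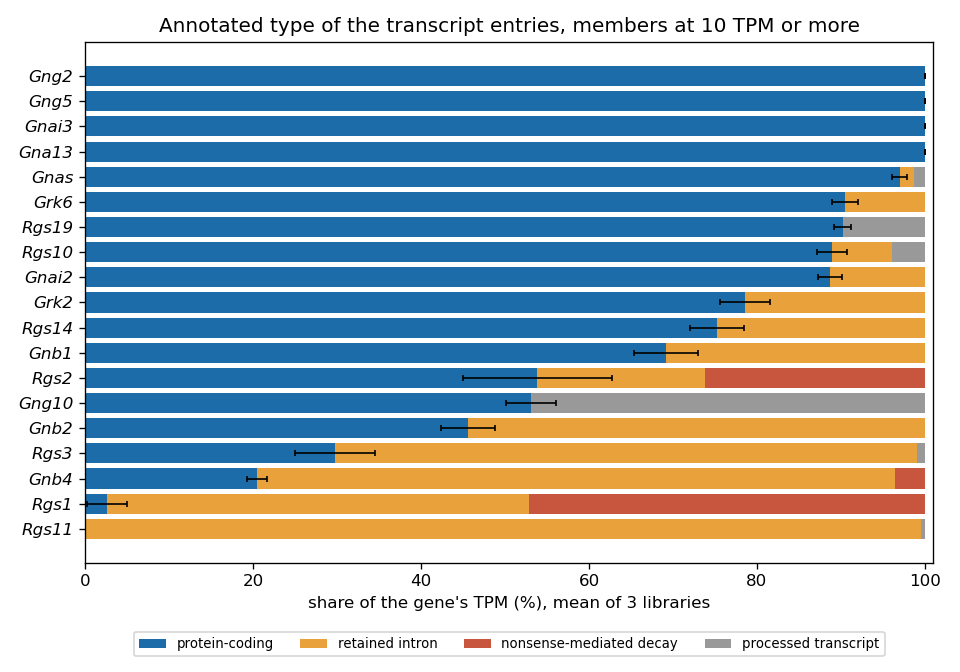
Share of each gene's TPM (%) in entries of each annotated type, as stacked bars over the means of 3 libraries, for the 19 members with a mean of at least 10 TPM, with SD bars on the protein-coding share. The protein-coding share spans 100% for Gng2, Gng5, Gnai3 and Gna13 down to 2.62% for Rgs1 and 0% for Rgs11.

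The leading entry of Rgs1 was not its coding one. Rgs1-204, a 1328-base entry marked for decay, had 21.3, 16.3 and 13.1 TPM in replicates 1, 2 and 3, which was 42.5 ± 7.10% of the gene, and 66.8% in the second quantification. The full coding entry, Rgs1-208 of 3841 bases, had 0.43, 0.31 and 0.45 TPM. Every library had far more of Rgs1-204. Exon 2 of Rgs1-204 starts 49 bases earlier, and the added bases bring a stop codon within 4 bases of the junction. The fragments below start 20 bases before that junction (mm10, minus strand, GENCODE M21), with capitals for the first added bases up to and including the stop codon TAA. Rgs1-204 is given over chr1:144248605-144248920 and Rgs1-208 over chr1:144248540-144248920.
Rgs1-204: aaaaaaaggccaaagactttATAA
Rgs1-208: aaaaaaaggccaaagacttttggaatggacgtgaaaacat

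Rgs1-204 also ends nearer the start of the gene, at position 144244673, where Rgs1-208 ends at 144242296. The tables give no reads per exon, so which of these features placed the reads in Rgs1-204 cannot be told apart. By mean share of TPM, 12 of the 19 members had the same leading entry in both quantifications. The leading entry was protein-coding for 13 members in the first transcript table and for 15 in the second quantification. Beside Gnas, the leading entry differed for Gnb2 (retained-intron Gnb2-213, then coding Gnb2-209), Gnb4 (retained-intron Gnb4-207, then retained-intron Gnb4-204) and Rgs3 (retained-intron Rgs3-214, then coding Rgs3-206). For Gng2 (Gng2-206, then Gng2-204), Rgs19 (Rgs19-201, then Rgs19-211) and Rgs2 (Rgs2-204, then Rgs2-202) both were coding. In the first transcript table Rgs2-204 held 27.1 ± 3.81% of Rgs2, and Rgs2-201, marked for decay, 26.2 ± 8.68%. By mean TPM Rgs2-201 was the higher, at 9.87 against 9.62 TPM, so no leading entry of Rgs2 is shown. The 13 and 15 above count Rgs2 as coding. Gnb1 led with the retained-intron entry Gnb1-206 in both, at 20.9% and 26.8% of its TPM.

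The second quantification also moved the levels. Over all 12216 genes with a mean of at least 1 TPM, its log2 ratio to the gene table had a median of 0.38, with quartiles of 0.24 and 0.56, and over the 32 members a median of 0.33. Members far above the median of all genes were Gnal at 1.74, Grk4 at 1.57, Gnaq at 1.48 and Gnb5 at 1.05. Rgs1 at -0.36, Gng2 at -0.27 and Gng12 at -0.16 were the 3 members below 0. Mean levels in the second quantification were 5.40 TPM for Gnal, 6.39 TPM for Grk4, 13.8 TPM for Gnaq and 31.0 TPM for Rgs1. Gnai2 at 0.43, Gnas at 0.37, Grk6 at 0.32 and Grk2 at 0.33 lay between the quartiles of all genes. Gnb2 at 0.17 lay below the lower quartile and Gnb1 at 0.64 above the upper one. The effective length by which TPM is scaled also differed. Over long entries it lay a median of 100 bases below the length in the first transcript tables. In the second quantification it lay 289, 267 and 274 bases below in replicates 1, 2 and 3. The part of this difference in the shifts of level, which would be largest for short entries, was not tested.

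**Figure D4:**
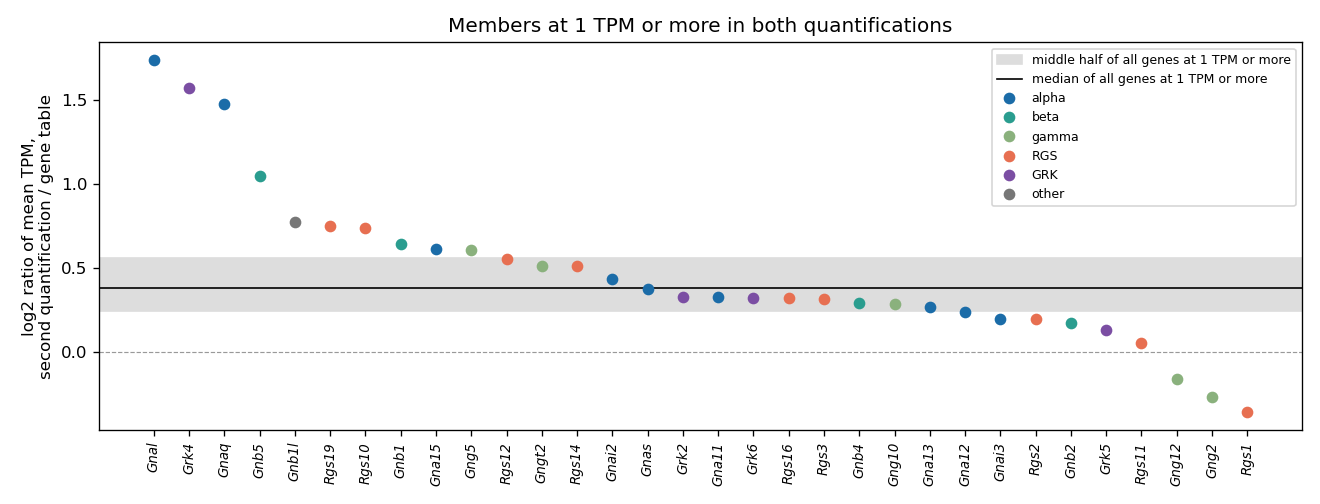
Log2 ratio of mean TPM, second quantification over gene table, for the 32 members with a mean of at least 1 TPM, coloured by class, with a line at the median of all genes (0.38) and a band between their quartiles (0.24 and 0.56). Gnal, Grk4, Gnaq and Gnb5 lie above 1, and Gng12, Gng2 and Rgs1 lie below 0.

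No member passed the test for varying between the libraries more than genes of like abundance. In edgeR's quasi-likelihood fit of an intercept-only model, 0 of 34 members tested had an adjusted p of at most 0.05, where 0.565% of all 13280 genes did. At an unadjusted p below 0.05 there were 3 members, against a background of 5.69%. By edgeR they were Rgs1 (unadjusted 0.00514, adjusted p = 0.337), Gnal (unadjusted 0.00542, adjusted p = 0.339) and Rgs2 (unadjusted 0.0355, adjusted p = 0.807). Of 55 cell type markers and immediate-early genes tested, 4 passed. By edgeR they were Fos (adjusted p = 0.0027), Fosb (adjusted p = 0.0168), Egr1 (adjusted p = 0.0325) and the erythroid Hba-a2 (adjusted p = 0.0321). DESeq2's marking of outlying dispersion named 0 members, against 0.941% of the 13280 genes. Without a filter on low counts edgeR called 2 of 50 members, Gnal and Rgs1, against 1.33% of all 22813 genes. The CV over libraries of the members at 10 TPM or more had a median of 6.55%, against 6.77% for all such genes.

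Some members lie side by side in the genome at very different levels. Within 500 kb of another member lay 30 of the 63, in 13 clusters, and 8 clusters held members on both sides of a mean of 1 TPM. A mean of at least 1 TPM was reached by 14 of these 30 and by 18 of the 33 other members. No share over all genes was computed, so these counts are a description and show no trait of the members. On chromosome 1 the R4 genes Rgs2, Rgs13, Rgs1, Rgs21 and Rgs18 follow each other on the minus strand, with means of 36.1, 0, 39.8, 0 and 0.190 TPM in that order. Rgs16 (3.70 TPM) neighbours Rgs8 (0.0367 TPM), and Gnai2 (170.4 TPM) neighbours Gnat1 (0.560 TPM). Gnai3 (29.4 TPM) lies 5.85 kb from Gnat2 (0.0467 TPM), Gna13 (42.9 TPM) lies 64.7 kb from Rgs9 (0.210 TPM), and Gnaq (4.95 TPM) lies 48.3 kb from Gna14 (0.123 TPM). In the other 5 clusters the neighbours were alike in this respect. Rgs14 (32.1 TPM) and Grk6 (150.0 TPM) both lay above 1 TPM, as did Grk4 and Rgs12. Rgs5 and Rgs4, Gngt1 and Gng11, and Gnat3 and Gnai1 were all at or near 0. Gna15 and Gna11, 4.5 kb apart, had means of 6.96 and 9.94 TPM, and Gng7, in the same cluster, 0.00667 TPM.

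**Figure D5:**
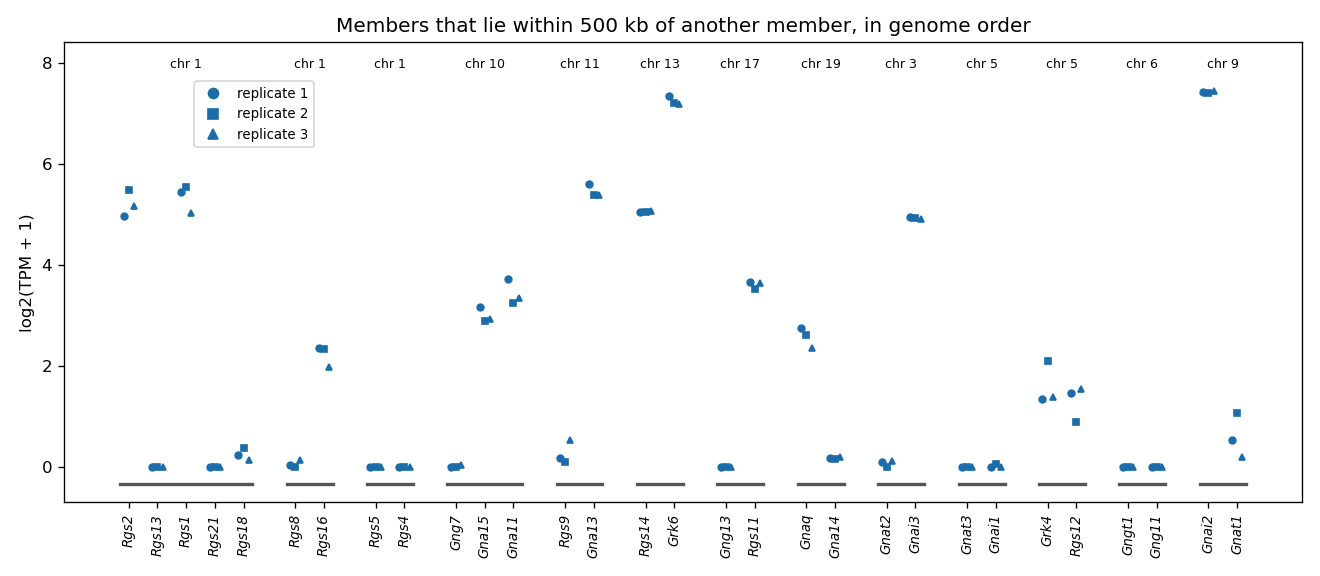
Level as log2(TPM + 1) in each of the 3 libraries for the 30 members within 500 kb of another member, in genome order, with a bar under each of the 13 clusters. Rgs2 and Rgs1 on chromosome 1 lie near 5 on this scale while Rgs13 and Rgs21 between and beside them lie at 0.

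The promoters of 2 neighbouring pairs are shown because the genes of each pair lie close together at different levels. They are the 250 bases before the start of the gene from RefSeq (GRCm38.p6), with capitals for the motif GGGCGG, the GC box, on either strand.
Gnai3: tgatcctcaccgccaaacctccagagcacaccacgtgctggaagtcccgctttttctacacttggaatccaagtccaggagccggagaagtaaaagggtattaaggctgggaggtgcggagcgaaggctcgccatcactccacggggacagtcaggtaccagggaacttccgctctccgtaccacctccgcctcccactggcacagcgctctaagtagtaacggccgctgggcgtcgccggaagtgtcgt
Gnat2: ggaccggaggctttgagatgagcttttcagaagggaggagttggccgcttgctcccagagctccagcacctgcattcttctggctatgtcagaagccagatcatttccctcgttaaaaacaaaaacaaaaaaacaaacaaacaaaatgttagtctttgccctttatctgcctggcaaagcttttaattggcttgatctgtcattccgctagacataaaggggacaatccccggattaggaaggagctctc
Rgs2: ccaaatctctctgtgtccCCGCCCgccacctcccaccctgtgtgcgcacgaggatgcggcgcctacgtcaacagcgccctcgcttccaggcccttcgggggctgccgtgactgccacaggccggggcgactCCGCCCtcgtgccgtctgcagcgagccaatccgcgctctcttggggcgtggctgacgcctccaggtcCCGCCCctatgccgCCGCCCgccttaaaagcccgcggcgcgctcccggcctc
Rgs13: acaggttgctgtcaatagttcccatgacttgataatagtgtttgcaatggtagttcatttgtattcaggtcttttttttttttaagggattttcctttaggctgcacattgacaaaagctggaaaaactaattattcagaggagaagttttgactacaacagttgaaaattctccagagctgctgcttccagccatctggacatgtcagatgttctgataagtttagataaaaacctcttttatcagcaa

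These windows lie at chr3:108146153-108146402 on the minus strand (Gnai3), chr3:108092816-108093065 on the plus strand (Gnat2), chr1:144004150-144004399 on the minus strand (Rgs2) and chr1:144177373-144177622 on the minus strand (Rgs13). They hold 18 CpG dinucleotides for Gnai3, 5 for Gnat2, 30 for Rgs2 and 0 for Rgs13, and 4 GC boxes for Rgs2. Of the 63 members 46 matched a RefSeq window, with the highest value taken where a gene had several. The median CpG number was 27 for 13 members at 10 TPM or more, 17 for 11 members from 1 to under 10 TPM and 8 for 22 members below 1 TPM, against 6 for 27025 genes. The 13 members, out of 19 at that level, had 21 windows, and Gnai2 and Grk2 had none. The 27025 genes had 32851 windows and were not matched for level. Unlike the members, they were not limited to genes with a protein-coding transcript. Taking the highest value favours genes with more windows. GGGCGG on either strand was in 76.9%, 72.7% and 31.8% of these 3 sets of members, against 35.4% of all genes. The motif TGACGTCA, the cyclic AMP response element, was in 0% of the members' windows, against 1.77%, and TATAAA on either strand was in 13.04%, against 14.3%. These counts are descriptions of the letters, with no test, and no motif contains another.

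The partners of these proteins were measured with a list of 74 genes, of which 56 had a mean of at least 1 TPM and 38 of at least 10 TPM. Of all genes with a protein-coding transcript, 44.9% reached 1 TPM and 25.5% reached 10 TPM in all 3 libraries, a stricter rule than the mean. The list was chosen with earlier results of these data known, so the counts here and below describe the list only. In edgeR 0 of 59 partners tested passed at an adjusted p of 0.05, where 0.565% of all genes did. At an unadjusted p below 0.05 there were 6, against a background of 5.69%, and DESeq2 marked 1, Cxcr3, against 0.941%. Of 13 receptors all exceeded 1 TPM. The Gi-coupled homing receptor Ccr7 had 186, 179 and 177 TPM, the sphingosine 1-phosphate receptor S1pr1, which guides exit from lymphoid organs, 145, 141 and 129.5 TPM, and S1pr4 58.1, 60.0 and 57.3 TPM. Each of these 3 was nearly level over the libraries. The chemokine receptor Cxcr3 had 16.5, 11.5 and 8.82 TPM, highest in replicate 1, and was called in edgeR without a filter on low counts, as was the lysophospholipid receptor gene P2ry10 (53.0, 39.4 and 43.2 TPM).

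Of the enzymes next in line, 3 of 10 adenylyl cyclases exceeded 1 TPM. Adcy7, the main cyclase of blood cells, led with 84.8 ± 1.77 TPM, followed by Adcy3 with 11.8 ± 1.67 TPM and Adcy6 with 11.1 ± 1.11 TPM, while Adcy2, Adcy5 and Adcy8 were at 0. Of 17 cyclic AMP effectors and phosphodiesterases, 13 exceeded 1 TPM, led by Prkar1a, a regulatory subunit of protein kinase A (85.8 ± 3.89 TPM), the phosphodiesterase Pde3b (58.5 ± 9.43 TPM) and the catalytic subunit Prkacb (53.0 ± 5.18 TPM). Of the Gq effectors, Plcb2, the form of blood cells, had 40.7 ± 2.07 TPM, Plcb3 4.58 ± 0.512 TPM and Plcb4 2.76 ± 0.467 TPM. Arhgef1, an exchange factor that binds G alpha 13, was the highest gene of the whole list with 556, 574 and 543 TPM. Dock2, the Rac exchange factor of lymphocyte migration, had 181 ± 12.1 TPM, and Pik3r5, the adaptor of the beta-gamma-activated PI3 kinase, 72.8 ± 6.34 TPM. Of the arrestins Arrb2 had 116 ± 7.67 TPM, Arrb1 35.2 ± 4.83 TPM and the visual arrestin Sag 2.38 ± 0.527 TPM. Among 16 chaperones and other regulators, 13 exceeded 1 TPM, led by Gpsm3, which binds Gi alpha (73.1 ± 4.93 TPM), Ric8a, a chaperone of alpha subunits (37.9 ± 2.58 TPM), and Axin1, which carries an RGS domain (35.8 ± 2.34 TPM).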

How the data were processed

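The gene tables and the first transcript tables hold estimated counts, TPM and FPKM as deposited, per the file headers. The reads were aligned to the transcriptome of mm10 with annotation GENCODE M21, per the notes deposited with the samples, with no aligner or quantifier named in the sources used here. For the second transcript tables, the authors deposited TPM and estimated counts. Entries named by a number only (26248, with 3.29 to 8.39 counts per library) and spike-ins were left out. The members and gene lists were chosen with earlier results of these data known. Members with a mean of at least 1 TPM are named, lower ones by class, and the 3 highest partners per group with any called under a setting tried. Gnai1, Gnat1 and other low members named beyond this rule were chosen after their values were seen.

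Spread between libraries was tested with edgeR 4.0.16 (R 4.3.3). Estimated counts were rounded, filtered with filterByExpr and scaled by TMM, and the residual dispersion was set against the trend of a robust quasi-likelihood fit, with Benjamini-Hochberg adjustment at 0.05 over all genes. Tested on simulated data of this comparison (13157 genes), the test found 93% of 2-fold and 100% of 4-fold changes, with 2 false among 195 calls. The changed genes were drawn only from those above a floor on mean count, and all genes had a common dispersion. These rates therefore do not hold for members with few counts, such as Gnb5, or for genes with a wider spread. Ratios were tested by exact sign-flip over 3 libraries. Alternatives were the second quantification, protein-coding entries only, FPKM, TMM-scaled CPM, detection thresholds, filters, DESeq2 1.42.0 and each replicate left out. Shares within a class, numbers of RGS genes at 10 TPM and the members at 0 were recomputed under the first 2 of these as alternatives chosen after seeing the data. Python was 3.11.15 with pandas 2.3.3, numpy 2.4.6, scipy 1.17.1 and matplotlib 3.10.9.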

Additional observations from a re-analysis of the deposited data

How the results depend on the processing

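The number of members detected was 22 to 32 under the alternatives, against 31, and 5 of the 8 ratios kept their direction under each one tried. The numbers detected describe the members only, with no share over all genes given here. In the second quantification the summed TPM was 267 for Gi/o, 192 for Gs/olf, 37.0 for Gq/11, 58.7 for G12/13, 555 for all alpha, 293 for beta, 127 for gamma, 377 for RGS and 369 for GRK genes. Over protein-coding entries only, it was 181 for Gi/o, 9.21 for Gq/11, 380.2 for all alpha, 121 for beta, 86.5 for gamma, 162 for RGS and 247 for GRK genes. In FPKM, Gi/o summed to 206.6 and all alpha to 429. The log2 ratio of Gnaq over Gna11 reversed to 0.16 in the second quantification. Gnb1 over Gnb2 reversed to 0.15 in the second quantification, 0.28 over protein-coding entries and 0.52 in TMM-scaled CPM, which is not per length. Rgs1 over Rgs2 reversed to -0.44, to -4.61 over protein-coding entries and to -0.040 without replicate 1 (0.27 without replicate 3). The causes were not tested. Without a filter on low counts edgeR called 2 members and 2 partners (Cxcr3 and P2ry10), and 1 partner, Cxcr3, was called without replicate 2 and by DESeq2. Of the levels of 32 members, 27 moved by over 1 SD in the second quantification, 19 over protein-coding entries, 3 in FPKM and 0 when a replicate was left out. Over all genes, 75 were called as varying, against 303 without a filter, 28 with a non-robust fit, 43 without replicate 1, 35 without replicate 3 and 125 by DESeq2. No paired analysis was possible because all libraries form 1 group. Members with under 100 counts, such as Gnb5, Grk4 and Rgs12, are limited by depth.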
